A study of Mus musculus with 6 samples.

Results

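Glycolysis and hypoxia response genes were followed in leukemia cells from a mouse model of blast crisis chronic myeloid leukemia (bcCML), made from WT donors or from donors without Sdc1, the gene of the cell surface proteoglycan Syndecan-1. The set held 37 genes of the 36083 in the per-library expression table, matched by gene symbol: 4 glucose and lactate transporters, 18 glycolytic enzymes, 3 regulators of glycolytic flux, 5 genes of oxygen sensing and 7 targets of hypoxia-inducible factor (HIF). Of the 35 members with enough signal to test, 20 were lower (57.1%) and 8 were higher (22.9%) in the Sdc1-/- libraries. Of all genes tested, 31.3% were lower and 29.3% higher. The lower members included the enzymes Pgam1, Eno1, Pkm and Ldha, together with Pdk1, Ddit4, Ndrg1 and Bnip3l. Tpi1, Gapdh and Pgk1 were lower too, but their calls did not hold when every library was set to the same sum. The higher members included Hk1 and Hk2, Pfkl and Pfkm, the lactate transporter Slc16a1 and Vegfa.

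Glycolysis splits glucose into pyruvate in the cytosol, and lactate dehydrogenase turns pyruvate into lactate, which leaves the cell through monocarboxylate transporters. Several steps are carried out by more than 1 isozyme, and hexokinase and phosphofructokinase are the steps at which flux is chiefly controlled. When oxygen is short, HIF-1 alpha escapes prolyl hydroxylation and destruction by the VHL complex, pairs with ARNT and raises transcription of most of these genes through DNA elements with an RCGTG core. Myeloid leukemia cells, like other fast dividing cells, are known for high glycolytic gene expression even in oxygen.

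The study compared 3 libraries labelled WT with 3 labelled Sdc1-/-, all from leukemias made with the same 2 oncogenes, BCR-ABL and NUP98-HOXA9. Kit+ lineage-negative Sca1+ (KLS) cells of B6 background were transduced by retrovirus and double-positive cells were given, per the labels, to NSG recipients, which have no mature lymphocytes of their own but keep other blood cells, whereas the study's general methods name irradiated CD45.1 recipients for this model. All recipients were killed together, and Lin- cells were sorted from spleen. Sdc1-/- mice carry the disrupted allele from birth, and the study gives different age ranges for its mice in different places, with no age for each library. Nothing in the labels says that the libraries of a group came from separate mice, and a legend of the study calls the WT libraries technical replicates, so the p-values may cover technical spread alone.

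Values were TPM (transcript abundance corrected for transcript length and library size) from kallisto, given per gene and rescaled between libraries, so levels can be set side by side between genes. Library sums ran from 944973 to 1058263 and read depth is unknown, so no counting interval can be given. Sdc1 mRNA was 1.75, 1.21 and 1.51 in the WT libraries and 3.85, 3.81 and 4.12 in the libraries labelled Sdc1-/-, a ratio of means of 2.6. On log2(value + 1), which shrinks changes at low values, the log2 fold change was 0.99 ± 0.09 (SE, limma adjusted p = 0.00012). Sdc1 was higher where its loss was labelled. The Sdc1-/- allele is disrupted at the signal peptide, so RNA counted over the whole gene does not settle the genotype. The study describes PCR and staining checks of the deletion, which are not in these data, and an exchange of labels was not tested. Every direction here is between libraries as labelled. All 4 Y-linked genes listed were higher in the Sdc1-/- libraries, with summed values of 0.276 to 0.308 in WT and 68.1 to 78.4 in Sdc1-/-, so the source of the Y-linked RNA and the genotype cannot be told apart. All 14 neutrophil markers were lower (sums of 14280 to 15150 in WT and 5482 to 5605 in Sdc1-/-), as were 10 of 11 tested monocyte and macrophage markers (786 to 802 and 363 to 373) and 7 of 10 erythroid markers (9603 to 10310 and 5378 to 5781), and none of these was at 0 in all libraries. The erythroid sums are mostly hemoglobin RNA, and the erythroid genes Klf1 (log2 fold change 0.21) and Epor (0.14) were higher. Of 13 proliferation genes 10 were higher, with sums of 1583 to 1643 in WT and 1886 to 1904 in Sdc1-/-, and 5 of 8 progenitor markers were higher and 3 lower (Cd34, Flt3 and Spi1), with overlapping sums of 378 to 391.7 and 371 to 382. Of 6 tested megakaryocyte markers 2 were higher and 4 lower, with sums of 490 to 517 and 509 to 523. Of 9 lymphoid markers 3 were tested and 1, Nkg7, was called, lower, with sums of the list of 344 to 354.5 in WT and 288 to 301.4 in Sdc1-/- made up mostly of Nkg7. The T cell marker Cd3e was listed at 0 in all WT libraries and at 0.008 to 0.038 in Sdc1-/-. Cd3d and Cd3g overlapped between groups. The part of these cell type differences in the values below was not tested, and in bulk RNA fewer cells of a type and less RNA per cell cannot be told apart.

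Calls were made by limma on log2(value + 1) over 12155 genes with a mean of at least 1, at a Benjamini-Hochberg adjusted p under 0.05. By this rule 28 of the 35 tested members were called (80.0%), against 60.7% of all genes tested. Lower members made up 57.1% of those tested against 31.3% of all genes, and higher members 22.9% against 29.3%. The 3 libraries of a group did not overlap with the other 3 in 29 members (82.9%), against 66.7% of all genes. The median log2 fold change was -0.20 over the members and -0.01 over all genes tested.

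The count depended on how libraries were scaled. Sdc1-/- libraries had lower sums than WT libraries, and setting every library to a sum of 1000000 moved the median of all genes to 0.12. On that scale 15 members were lower (42.9%, against 19.6% of all genes) and 10 were higher (28.6%, against 43.5%), and the share of lower members among those called went from 20 of 28 (71.4%) to 15 of 25. Called in the same direction on both scales were 15 lower and 8 higher members. Tpi1, Gapdh, Pgk1, Hif1a and Bnip3 lost their calls, and Tpi1 changed sign. The members' median was -0.06 on that scale. A value on the second scale, with equal sums, is given below for each member whose estimate it moved by more than 1.5 times. Other scalings changed the count less. Median-of-ratios scaling gave 20 lower and 8 higher members, as deposited, with a median of all genes of -0.007. Of all 12155 genes it called 3766 lower and 3591 higher. Quantile normalization gave 18 lower and 9 higher members, with a median of all genes of 0.013. There 3452 of the 12155 genes were lower and 3776 higher.

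**Figure D1:**
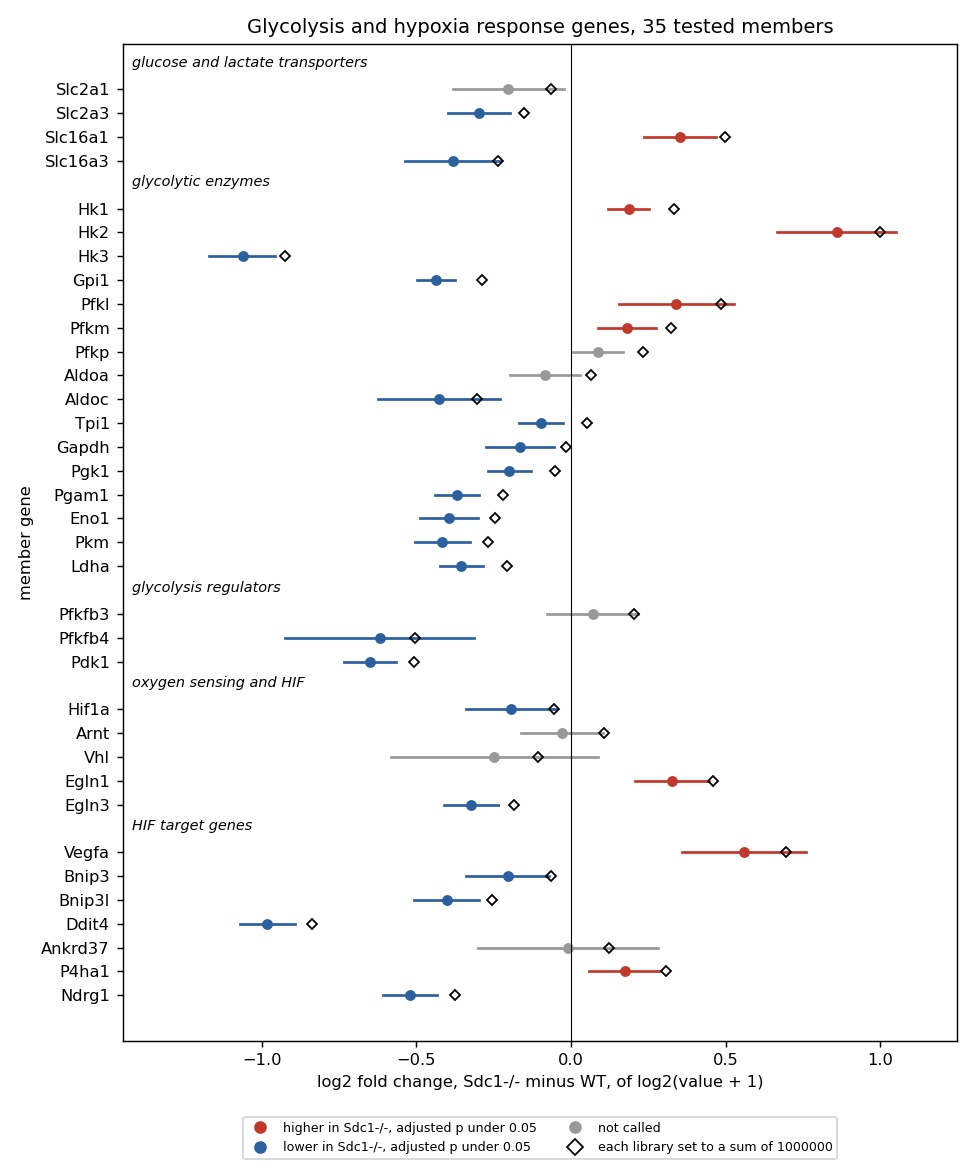
Log2 fold change of each of the 35 tested members between Sdc1-/- and WT on the log2(value + 1) scale, with points for the limma estimate, bars for its 95% confidence interval and open diamonds for the estimate after each library was scaled to a sum of 1000000. Hk3 and Ddit4 lie farthest below 0 and Hk2 and Vegfa farthest above it, and the diamonds sit to the right of the points.

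The members with the strongest changes among enzymes, transporters and HIF targets were Hk3, Ddit4, Hk2 and Vegfa, and their promoters are shown for that reason. Of these members 2 moved down and 2 moved up. Sequences are the 250 bases before the RefSeq start site (build GRCm38.p6, minus strand of the genome, 5′ to 3′ of the gene), with matches to the HIF core in capitals. Searched were ACGTG and GCGTG on both strands, so that a match on the other strand reads CACGT or CACGC.
Hk3, chr13:55021386-55021635: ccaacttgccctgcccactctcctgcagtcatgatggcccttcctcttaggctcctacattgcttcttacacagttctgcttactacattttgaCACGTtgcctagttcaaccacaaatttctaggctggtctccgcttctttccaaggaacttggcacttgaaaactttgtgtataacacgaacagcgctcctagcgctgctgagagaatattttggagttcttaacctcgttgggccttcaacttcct
Ddit4, chr10:59951771-59952020: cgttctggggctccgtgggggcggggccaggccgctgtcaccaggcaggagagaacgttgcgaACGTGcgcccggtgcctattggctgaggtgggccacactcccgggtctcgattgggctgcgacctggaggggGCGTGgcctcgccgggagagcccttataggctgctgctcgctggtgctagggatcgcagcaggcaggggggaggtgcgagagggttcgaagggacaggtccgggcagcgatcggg
Hk2, chr6:82774455-82774704: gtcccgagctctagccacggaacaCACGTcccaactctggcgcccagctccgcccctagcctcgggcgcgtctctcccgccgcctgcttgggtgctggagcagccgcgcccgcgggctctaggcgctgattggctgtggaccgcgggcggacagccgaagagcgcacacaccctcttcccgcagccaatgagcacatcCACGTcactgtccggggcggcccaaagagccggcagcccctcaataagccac
Vegfa, chr17:46032378-46032627: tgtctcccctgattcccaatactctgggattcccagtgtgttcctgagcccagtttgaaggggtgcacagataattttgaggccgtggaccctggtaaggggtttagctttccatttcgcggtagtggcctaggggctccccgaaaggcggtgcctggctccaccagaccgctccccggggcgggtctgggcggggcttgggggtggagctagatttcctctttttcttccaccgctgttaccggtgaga

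In the 300-base windows that run from 250 bases before to 50 after the start site, Hk3 held 1 match, at -156 from the start. Ddit4 held 2, at -187 and -115, and Hk2 held 2, at -226 and -52. The first Vegfa window held 0 matches, and a further Vegfa window at an internal start, 46025114 to 46025413 of chromosome 17, held 2. Lower and higher members both had promoters with a core. A match is a description of the letters and not a bound site.

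Promoter windows were found for 34 of the 37 members. Of these 30 (88.2%) had a core in at least 1 window, compared with 46.7% of all 27025 genes with a window. By window the figures were 38 of 48 (79.2%) and 43.8% of 32851. Member windows were also richer in G and C, with a median of 62.2% against 52.7%, and the part of base composition in the count of matches was not tested. The windows of Slc2a3, Bnip3l and Ndrg1 were not analysed here.

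The transporters moved in both directions. Slc2a3 (GLUT3, a high-affinity glucose transporter) had values of 49.05, 45.0 and 45.5 in WT and 38.3, 37.9 and 36.8 in Sdc1-/-, a log2 fold change of -0.30 ± 0.04 (SE, limma adjusted p = 0.00085), or -0.15 with equal sums. Slc2a1 (GLUT1, the widespread glucose transporter) had values of 16.3, 15.2 and 14.7 in WT and 14.8, 12.1 and 13.0 in Sdc1-/-. The Slc2a1 groups overlapped and the log2 fold change of -0.20 ± 0.08 did not pass (limma adjusted p = 0.052), and it was -0.06 with equal sums (adjusted p = 0.48). It passed in 4 of the 16 other settings, with a minimum mean of 5, quantile normalization, the replicate number as a block or without Sdc1-/- replicate 1 (adjusted p = 0.045, 0.047, 0.02 and 0.01).

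Lactate and pyruvate cross the membrane through MCT1, encoded by Slc16a1, and MCT4, encoded by Slc16a3, which is the form linked to lactate export from glycolytic cells. Slc16a1 had values of 41.3, 45.9 and 45.4 in WT and 54.7, 57.4 and 57.9 in Sdc1-/-, a log2 fold change of 0.35 ± 0.05 (limma adjusted p = 0.00077). Slc16a3 went the other way, with 60.5, 52.2 and 57.1 in WT and 46.1, 41.2 and 42.2 in Sdc1-/- and a log2 fold change of -0.38 ± 0.07 (limma adjusted p = 0.002), or -0.24 with equal sums. In both genes every Sdc1-/- library lay outside the WT range. Slc16a1 was the minor form in each WT library and the major form in each Sdc1-/- library, and its share of the summed MCT1 and MCT4 transcripts was 43.9% ± 3.1 in WT and 56.8% ± 2.2 in Sdc1-/- (SD, n = 3, exact permutation p = 0.1, two-sided).

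A share within a library does not depend on scaling between libraries. With 3 libraries against 3, the exact permutation test cannot give a p below 0.1, which is reached when the groups do not overlap. The glucose transporter balance did not separate the groups, since Slc2a1 made up 24.9% ± 0.4 of Slc2a1 plus Slc2a3 in WT and 26.04% ± 1.8 in Sdc1-/- (SD, n = 3, exact permutation p = 0.4).

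Hexokinase, which traps glucose as glucose-6-phosphate, changed its make-up. Hk3, a form known from granulocytes and monocytes (ENSMUSG00000025877, GRCm38 chromosome 13, 55005985 to 55021385), had values of 21.0, 19.4 and 20.6 in WT and 9.07, 9.23 and 9.32 in Sdc1-/-. The groups were far apart, with a log2 fold change of -1.06 ± 0.04 (limma adjusted p = 3.7e-06), or -0.92 with equal sums. On the log2(value + 1) scale Hk3 was the 1 called member at or past a 2-fold change, a count that depends on the pseudocount, since Ddit4 lay at -0.98. Hk2, the inducible form bound to mitochondria (ENSMUSG00000000628, GRCm38 chromosome 6, 82725025 to 82774454), had values of 9.93, 9.78 and 12.1 in WT and 19.4, 19.6 and 21.0 in Sdc1-/-. All 3 Sdc1-/- libraries were above all WT libraries, with a log2 fold change of 0.86 ± 0.08 (limma adjusted p = 0.00013). Hk1, the form most cells express, was far more abundant than both, with means of 152 ± 1.6 in WT and 174 ± 3.4 in Sdc1-/- (SD, n = 3) and a log2 fold change of 0.19 ± 0.03 (limma adjusted p = 0.0011), or 0.33 with equal sums.

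Hk1 made up 83.1% ± 0.8 of summed hexokinase transcripts in WT and 85.6% ± 0.6 in Sdc1-/-. Hk2 went from 5.79% ± 0.69 to 9.88% ± 0.53, and Hk3 from 11.1% ± 0.3 to 4.54% ± 0.12 (SD, n = 3, exact permutation p = 0.1 for each of the 3 genes). Hk3 was the second form in every WT library and Hk2 the second form in every Sdc1-/- library. The fall of Hk3 stood beside lower values of all 14 neutrophil markers, given above, whose part in it was not tested.

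**Figure D2:**
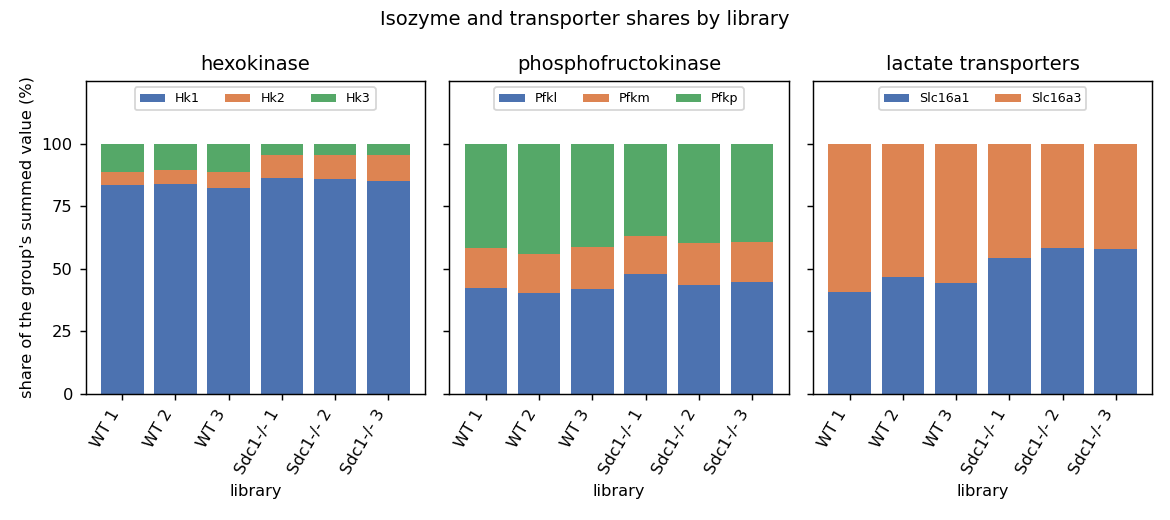
Percent of the summed value that each isozyme or transporter took in each of the 6 libraries, for hexokinase, phosphofructokinase and the lactate transporters, with bars stacked to 100%. The Hk3 layer is thinner and the Hk2 and Slc16a1 layers are thicker in the 3 Sdc1-/- libraries than in the 3 WT libraries.

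Phosphofructokinase commits sugar to glycolysis, and its 3 genes were all higher on average in Sdc1-/-. Pfkl, the liver form that also prevails in many blood cells, had values of 51.0, 46.0 and 48.8 in WT and 69.7, 57.1 and 59.2 in Sdc1-/-, a log2 fold change of 0.34 ± 0.08 (limma adjusted p = 0.0079). Pfkm, the muscle form, changed less, with means of 19.1 ± 0.7 and 21.8 ± 0.1 and a log2 fold change of 0.18 ± 0.04 (limma adjusted p = 0.0059), or 0.32 with equal sums. Pfkp, the platelet form, did not pass, with a log2 fold change of 0.09 ± 0.03 (limma adjusted p = 0.064), but its groups did not overlap and it passed with equal sums at 0.23 (adjusted p = 0.00073, range over the other settings 0.00073 to 0.19). The Pfkl share of the 3 forms went from 41.5% ± 1.2 to 45.4% ± 2.4 and the Pfkp share from 42.2% ± 1.5 to 38.6% ± 1.5 (SD, n = 3, exact permutation p = 0.1 for both). The Pfkm share overlapped between groups, at 16.3% ± 0.4 and 16.0% ± 0.9 (exact permutation p = 0.8).

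Gpi1, the isomerase between hexokinase and phosphofructokinase, was lower although the steps on either side of it were higher. Its values were 704, 715 and 696 in WT and 525, 518 and 519 in Sdc1-/-, with groups far apart and a log2 fold change of -0.44 ± 0.03 (limma adjusted p = 1.5e-05), or -0.29 with equal sums.

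Of the steps from aldolase to phosphoglycerate kinase, aldolase overlapped between groups, and the calls of Tpi1, Gapdh and Pgk1 did not hold with equal sums. Aldoa, the main aldolase, did not pass, with means of 734 ± 39 and 693 ± 25 (SD, n = 3), overlapping groups and a log2 fold change of -0.08 ± 0.05 (limma adjusted p = 0.17), which was 0.07 with equal sums. It passed when WT replicate 2 was left out, at -0.13 (adjusted p = 0.031, range over the other settings 0.031 to 0.72). A second gene model with the same symbol just upstream of it, with means under 1 in both groups, was kept apart. Aldoc, the scarce brain form, had values of 5.84, 5.22 and 4.84 in WT and 4.03, 3.37 and 3.66 in Sdc1-/-, a log2 fold change of -0.43 ± 0.08 (limma adjusted p = 0.0037), and its share of aldolase transcripts was 0.718% ± 0.073 and 0.529% ± 0.033 (exact permutation p = 0.1).

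Tpi1, which interconverts the triose phosphates, was lower by a small margin, with means of 511 ± 8 and 478 ± 11 and a log2 fold change of -0.10 ± 0.03 (limma adjusted p = 0.028). With equal sums it was 0.05 (adjusted p = 0.15), and it also missed the threshold in 4 of the 6 fits that left out a library, as when WT replicate 1, WT replicate 3, Sdc1-/- replicate 2 or Sdc1-/- replicate 3 was dropped (adjusted p = 0.072, 0.087, 0.11 and 0.077, range over the other settings 0.021 to 0.23). Gapdh, the dehydrogenase of the first energy-yielding step and the most abundant member, had values of 3298, 2989 and 3262 in WT and 2917, 2837 and 2764 in Sdc1-/-. The lowest WT library was close to the highest Sdc1-/- library, and the log2 fold change was -0.16 ± 0.05 (limma adjusted p = 0.019). Gapdh was -0.02 with equal sums (adjusted p = 0.78) and 0.08 after quantile normalization (adjusted p = 0.12), and its call was lost without WT replicate 1, WT replicate 3, Sdc1-/- replicate 2 or Sdc1-/- replicate 3 (adjusted p of 0.062, 0.061, 0.058 and 0.061, range over the other settings 0.0038 to 0.78).

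Pgk1, the kinase that makes ATP in the next step, had values of 575, 592 and 598 in WT and 508, 523 and 508 in Sdc1-/-, a log2 fold change of -0.20 ± 0.03 (limma adjusted p = 0.001). With equal sums it was -0.05 (adjusted p = 0.18, range over the other settings 0.00011 to 0.18). Transcript copies mattered here, because 54.7% of the 31-base words of Pgk1 transcripts also occur in other genes. Its 2 near-identical copies together had means of 93.9 in WT and 31.3 in Sdc1-/-, and the log2 fold change of Pgk1 summed with them was -0.33. How kallisto split reads among these genes was not tested, so the value of Pgk1 alone is uncertain.

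From phosphoglycerate mutase to lactate dehydrogenase, every abundant enzyme was lower in all Sdc1-/- libraries than in any WT library. Pgam1, the mutase, had values of 490, 517 and 507 in WT and 390, 393 and 390 in Sdc1-/-, a log2 fold change of -0.37 ± 0.03 (limma adjusted p = 5.6e-05), or -0.22 with equal sums. Its copy Pgam1-ps2 had a mean of 41.3 in WT and 0.27 in Sdc1-/-, and the sum of both genes gave -0.48. Of the 31-base words of Pgam1 transcripts, 37.1% occur in other genes, so its value alone is uncertain too. Pkm (34.7%), Eno1 (28.5%) and Gapdh (27.2%, with 43 copies) also share words with other genes. Summed with their copies they gave log2 fold changes of -0.415, -0.395 and -0.172, beside -0.416, -0.394 and -0.164 alone. How reads were split among them was not tested.

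Eno1, the enolase of most tissues, had values of 1017, 950 and 973 in WT and 774, 739 and 724 in Sdc1-/-, a log2 fold change of -0.39 ± 0.04 (limma adjusted p = 0.00016), or -0.25 with equal sums. Pkm, which makes pyruvate and the second ATP, had values of 904, 878 and 871 in WT and 693, 655 and 641 in Sdc1-/-, a log2 fold change of -0.42 ± 0.04 (limma adjusted p = 9.5e-05), or -0.27 with equal sums. Ldha, the lactate dehydrogenase subunit that favours lactate formation, had values of 2207, 2193 and 2189 in WT and 1743, 1739 and 1673 in Sdc1-/-. The WT libraries of Ldha lay close together and all Sdc1-/- libraries were far below them, with a log2 fold change of -0.35 ± 0.03 (limma adjusted p = 6.7e-05). Ldha was -0.21 with equal sums and -0.10 after quantile normalization, where its call was lost (adjusted p = 0.064, range over the other settings 4.4e-05 to 0.064).

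The neuronal enolase Eno2 and the heart form Ldhb had means under 1 over the 6 libraries and were not tested. Eno2 ranged from 0.298 to 0.663 and its groups overlapped. Ldhb ranged from 0.247 to 0.478 in WT and from 0.782 to 1.97 in Sdc1-/-, without overlap, and its share of lactate dehydrogenase transcripts was 0.0161% ± 0.0052 in WT and 0.0713% ± 0.0363 in Sdc1-/- (SD, n = 3, exact permutation p = 0.1), so nearly all of these transcripts were Ldha in both groups.

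Summed by step, hexokinase transcripts in Sdc1-/- were at 110.6% of the WT mean and phosphofructokinase at 116.4%, whereas glucose-6-phosphate isomerase was at 73.9%. Aldolase, triose-phosphate isomerase, Gapdh and Pgk1 lay between 87.1% and 94.2%, and the 4 steps from Pgam1 to lactate dehydrogenase between 74.97% and 78.3%. The aldolase sums alone overlapped between groups. With equal sums the log2 ratios of the step sums were 0.29 for hexokinase and 0.37 for phosphofructokinase, against 0.15 and 0.22 as deposited, and 0.06 for aldolase, 0.05 for Tpi1, -0.02 for Gapdh and -0.05 for Pgk1. From Pgam1 to lactate dehydrogenase they stayed below 0 on both scales, between -0.27 and -0.20 with equal sums. Counting near-identical copies, the ratio was -0.33 for Pgk1 and -0.48 for Pgam1 on the deposited scale. All 18 enzymes together took 0.983% to 1.02% of a WT library's sum and 0.921% to 0.958% of a Sdc1-/- library's sum.

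**Figure D3:**
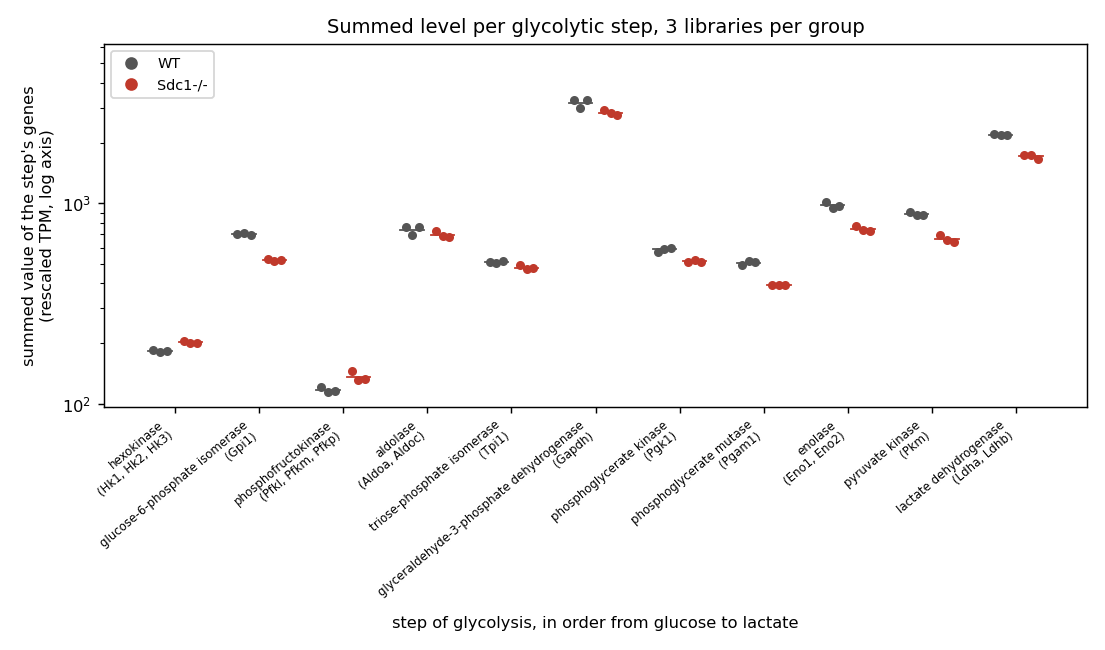
Summed value of the genes of each glycolytic step in each library (rescaled TPM, log axis), in pathway order, with grey points for the 3 WT libraries, red points for the 3 Sdc1-/- libraries and lines for the group means. Hexokinase and phosphofructokinase are the steps with higher Sdc1-/- points, and the steps from Pgam1 to lactate dehydrogenase lie at 74.97% to 78.3% of WT.

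Among the regulators, Pdk1 and Pfkfb4 were lower. Pdk1, the kinase that shuts pyruvate dehydrogenase and so keeps pyruvate out of mitochondria (ENSMUSG00000006494, GRCm38 chromosome 2, 71873224 to 71903858), had values of 45.2, 45.9 and 43.9 in WT and 29.0, 28.2 and 27.7 in Sdc1-/-. The groups were well separated, with a log2 fold change of -0.65 ± 0.04 (limma adjusted p = 1e-05). Pfkfb4, which sets the level of the phosphofructokinase activator fructose-2,6-bisphosphate, had values of 4.86, 4.21 and 4.503 in WT and 2.24, 2.25 and 3.41 in Sdc1-/-. Sdc1-/- replicate 3 was nearest to WT, and the log2 fold change was -0.62 ± 0.13 (limma adjusted p = 0.0051). Pfkfb3, a relative with strong kinase activity, overlapped between groups with means of 9.57 ± 0.31 and 10.1 ± 0.8 and a log2 fold change of 0.07 ± 0.06 (limma adjusted p = 0.37), although with equal sums it passed at 0.20 (adjusted p = 0.025, range over the other settings 0.025 to 0.71).

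In oxygen sensing, the HIF subunits differed little. Hif1a, the oxygen-regulated subunit, had values of 14.7, 15.4 and 16.4 in WT and 12.5, 13.6 and 14.2 in Sdc1-/-. The lowest WT library was just above the highest Sdc1-/- library, with a log2 fold change of -0.19 ± 0.06 (limma adjusted p = 0.03). Hif1a was -0.05 with equal sums (adjusted p = 0.49), and its call was lost without WT replicate 2, WT replicate 3, Sdc1-/- replicate 1 or Sdc1-/- replicate 2 (adjusted p = 0.061, 0.094, 0.078 and 0.066, range over the other settings 0.009 to 0.49). HIF-1 alpha is controlled chiefly as a protein, which was not measured here. Arnt, its partner, had means of 11.3 ± 0.3 and 11.1 ± 0.7 and a log2 fold change of -0.03 ± 0.06 (95% interval -0.16 to 0.10, limma adjusted p = 0.67), which was 0.11 with equal sums. Vhl, the recognition subunit of the ligase, varied widely between libraries of 1 group, with means of 24.2 ± 4.6 and 20.1 ± 2.6 and a log2 fold change of -0.25 ± 0.14 (limma adjusted p = 0.17). Vhl was -0.11 with equal sums (adjusted p = 0.54) and -0.11 without WT replicate 2 (adjusted p = 0.44, range over the other settings 0.0071 to 0.54).

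The prolyl hydroxylases that mark HIF-1 alpha moved apart. Egln1 (PHD2, the main oxygen sensor) had values of 6.16, 6.73 and 6.59 in WT and 8.48, 8.17 and 8.56 in Sdc1-/-, a log2 fold change of 0.33 ± 0.05 (limma adjusted p = 0.0012). Egln3 (PHD3, itself a HIF target) had values of 15.3, 15.5 and 15.2 in WT and 11.8, 12.2 and 12.2 in Sdc1-/-, a log2 fold change of -0.32 ± 0.04 (limma adjusted p = 0.0003), or -0.19 with equal sums. Both genes separated the groups completely, in opposite directions.

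Of 7 HIF targets, 4 were lower (57.1%, against 31.3% of all genes) and 2 higher (28.6%, against 29.3%). With equal sums 3 were lower (42.9%, against 19.6%) and 2 higher (28.6%, against 43.5%). Ddit4 (REDD1, an inhibitor of mTORC1 induced by hypoxia, stress and glucocorticoids; ENSMUSG00000020108, GRCm38 chromosome 10, 59949669 to 59951834) had values of 76.3, 74.1 and 77.6 in WT and 37.9, 36.6 and 39.4 in Sdc1-/-. Spread within each group was small beside the gap between them, and the log2 fold change was -0.98 ± 0.04 (limma adjusted p = 3.1e-06). Ndrg1, a stress and differentiation gene, had values of 46.0, 44.7 and 45.5 in WT and 31.8, 32.2 and 30.1 in Sdc1-/-, a log2 fold change of -0.52 ± 0.04 (limma adjusted p = 3.3e-05).

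Bnip3l (NIX) and Bnip3 are mitophagy receptors, and Bnip3l is also known for clearing mitochondria from maturing red cells. Bnip3l had values of 178, 189 and 189 in WT and 133, 142 and 146 in Sdc1-/-, a log2 fold change of -0.40 ± 0.04 (limma adjusted p = 0.00024), or -0.25 with equal sums. Its lower value stood beside lower hemoglobin-rich sums of the erythroid markers and higher Klf1 and Epor, given above, whose part in it was not tested. Bnip3 had means of 24.9 ± 1.5 and 21.5 ± 1.0 and a log2 fold change of -0.21 ± 0.06 (limma adjusted p = 0.017), which was -0.06 with equal sums (adjusted p = 0.36). The Bnip3 call was also lost without WT replicate 1, WT replicate 2 or Sdc1-/- replicate 2 (adjusted p = 0.056, 0.053 and 0.061, range over the other settings 0.0079 to 0.36).

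Vegfa, the angiogenic growth factor and a classical HIF target (ENSMUSG00000023951, GRCm38 chromosome 17, 46016993 to 46032369), was higher in Sdc1-/-. It had values of 12.1, 9.45 and 10.1 in WT and 16.3, 15.4 and 16.2 in Sdc1-/-, so that the highest WT library stayed below every Sdc1-/- library, with a log2 fold change of 0.56 ± 0.08 (limma adjusted p = 0.0011). P4ha1, a collagen prolyl hydroxylase, was higher by less, with means of 6.52 ± 0.28 and 7.496 ± 0.13 and a log2 fold change of 0.18 ± 0.05 (limma adjusted p = 0.018), or 0.31 with equal sums. The P4ha1 call was lost without WT replicate 1, Sdc1-/- replicate 2 or Sdc1-/- replicate 3 (adjusted p = 0.056, 0.055 and 0.054, range over the other settings 0.0016 to 0.056). Ankrd37 overlapped between groups, with means of 8.72 ± 1.07 and 8.69 ± 1.41 and a log2 fold change of -0.01 ± 0.12 (95% interval -0.30 to 0.28, limma adjusted p = 0.95), which was 0.12 with equal sums.

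**Figure D4:**
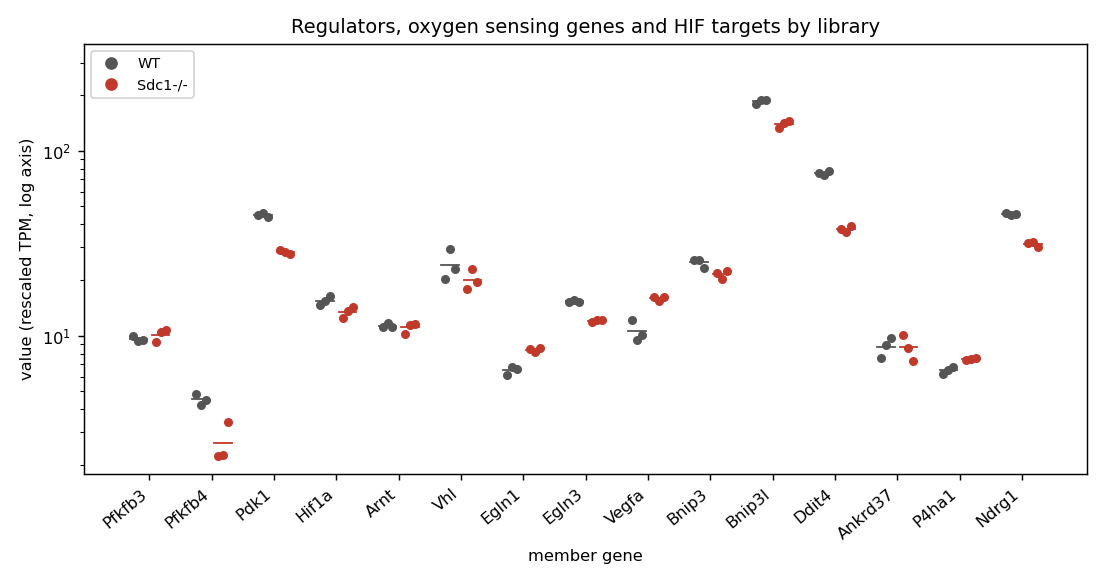
Value of each regulator, oxygen sensing gene and HIF target in each library (rescaled TPM, log axis), with grey points for the 3 WT libraries, red points for the 3 Sdc1-/- libraries and lines for the group means. Pfkfb4, Pdk1, Hif1a, Egln3, Bnip3, Bnip3l, Ddit4 and Ndrg1 are lower in all Sdc1-/- libraries than in any WT library. Egln1, Vegfa and P4ha1 are higher in all Sdc1-/- libraries, whereas Pfkfb3, Arnt, Vhl and Ankrd37 overlap.

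Other genes of these pathways gave a mixed picture. Of 32 further glycolysis and gluconeogenesis genes 20 were tested, with 4 higher (20%) and 10 lower (50%) and a median log2 fold change of -0.06. Over all genes tested the figures were 29.3%, 31.3% and -0.01. Fbp1, the gluconeogenic fructose-1,6-bisphosphatase, fell from 9.08, 9.33 and 9.72 to 2.32, 2.50 and 2.40 (log2 fold change -1.61 ± 0.05, limma adjusted p = 1.7e-06). Emb, which carries monocarboxylate transporters to the cell surface, fell from 63.7, 65.1 and 64.9 to 29.7, 29.4 and 29.9 (-1.10 ± 0.03, adjusted p = 9.3e-07). Slc2a9, a urate and hexose transporter, had means of 6.87 ± 0.31 and 3.72 ± 0.20 (-0.74 ± 0.06, adjusted p = 5.6e-05). Counts went to 7 higher (35%, against 43.5% of all genes) and 9 lower (45%, against 19.6%) with equal sums, with a median of 0.08.

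Of 42 further hypoxia and HIF pathway genes 34 were tested, with 10 higher (29.4%) and 12 lower (35.3%) and a median of -0.01, close to the 29.3%, 31.3% and -0.01 of all genes tested. Higd1a, a mitochondrial protein induced by hypoxia, had means of 348 ± 16 and 195 ± 9 (log2 fold change -0.83 ± 0.05, limma adjusted p = 1.2e-05). Ero1l, an oxidase of protein folding, had means of 105 ± 6 and 60.6 ± 9.5 (-0.80 ± 0.11, adjusted p = 0.00067), and Cited2, a HIF-induced rival for its coactivator, 133 ± 8 and 83.3 ± 7.6 (-0.67 ± 0.07, adjusted p = 0.00022). With equal sums the list had 15 higher (44.1%) and 10 lower genes (29.4%) and a median of 0.13, beside 43.5%, 19.6% and 0.12 for all genes.

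The pentose phosphate pathway branches off at glucose-6-phosphate and supplies NADPH and ribose. By limma 6 of its 10 genes were lower (60%, against 31.3% of all genes) and 0 higher (0%, against 29.3%). There were also 0 higher at an unadjusted p under 0.05. With equal sums 4 were lower (40%, against 19.6%) and 1 higher (10%, against 43.5%). The median of the pathway was -0.10 as deposited and 0.05 with equal sums. G6pdx, its entry enzyme, fell from 89.9, 89.8 and 88.3 in WT to 57.0, 56.7 and 54.1 in Sdc1-/- (log2 fold change -0.67 ± 0.03, limma adjusted p = 6.9e-06). Pgls, the lactonase, and Taldo1, the transaldolase, were lower by 0.34 ± 0.05 and 0.30 ± 0.04 (adjusted p = 0.00064 and 0.00034), or -0.19 and -0.15 with equal sums.

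Pyruvate entry into mitochondria had 7 of 12 tested genes lower (58.3%, against 31.3% of all genes) and 2 higher (16.7%, against 29.3%). The median was -0.30. With equal sums 6 were lower (50%, against 19.6%) and 3 higher (25%, against 43.5%), with a median of -0.17. Both subunits of the mitochondrial pyruvate carrier were lower, Mpc1 from 193 ± 7 to 125.4 ± 7.3 (-0.62 ± 0.05, adjusted p = 5.6e-05) and Mpc2 from 111 ± 7 to 77.4 ± 3.4 (-0.52 ± 0.06, adjusted p = 0.00021), as was Pcx, pyruvate carboxylase, from 19.8 ± 0.7 to 13.3 ± 0.3 (-0.54 ± 0.04, adjusted p = 5.4e-05). The citric acid cycle had 5 of 16 genes higher (31.2%) and 6 lower (37.5%), near the 29.3% and 31.3% of all genes. With equal sums it had 8 higher (50%, against 43.5% of all genes) and 0 lower by limma (0%, against 19.6%). On that scale 1 was lower at an unadjusted p under 0.05. The median of the cycle went from -0.04 to 0.11. Sdha, of succinate dehydrogenase, had means of 158 ± 14 and 207 ± 8 (0.39 ± 0.07, adjusted p = 0.0022), and Ogdh, of the 2-oxoglutarate dehydrogenase complex, 77.4 ± 1.4 and 95.2 ± 4.5 (0.29 ± 0.04, adjusted p = 0.00077), or 0.44 with equal sums. Sucla2, a subunit of succinyl-CoA ligase, was lower by 0.23 ± 0.03 (adjusted p = 0.00074), and at -0.08 with equal sums it missed the threshold (adjusted p = 0.051, range over the other settings 0.00062 to 0.051). Over the 5 lists 92 of 113 genes were tested. Of these 21 were higher (22.8%, against 29.3% of all genes) and 41 lower (44.6%, against 31.3%). With equal sums 34 were higher (37%, against 43.5% of all genes) and 29 lower (31.5%, against 19.6%).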

How the data were processed

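RNA from 3 WT and 3 Sdc1-/- samples of Lin- bcCML spleen cells (150 ng each) was sequenced by the authors as stranded mRNA libraries with single 75-base reads. Per the labels, reads were assigned with kallisto on build mm10 and compared with sleuth 0.30.0. The deposited values per gene and library are a signal, TPM rescaled between libraries by the authors, with 36083 genes. A second deposited table holds the fold changes and p-values of the authors' own comparison and was not used. Columns were matched to samples by name.

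Values were tested on log2(value + 1) with limma 3.58.1 in R 4.3.3 (eBayes with variance trend, group only) over the 12155 genes whose mean reached 1, with Benjamini-Hochberg adjustment over all of them. The tool was tested on simulated data first. Shares were compared with two-sided exact permutation tests in scipy 1.17.1. Near-identical copies are genes with at least 50% of their 31-base words in a member. Gene coordinates are from GENCODE M21 on GRCm38. Gene symbols were found for 35454 genes. The 16 other settings tried changed the pseudocount, minimum mean, scaling, variance trend, replicate block, copies and the libraries used. Members and gene lists were chosen with earlier results of these data known. Values in every library are given for called members with an absolute log2 fold change of at least 0.3 and for Hif1a, Slc2a1, Hk2, Gapdh, Ldha, Pgk1 and Pkm. For each other list the 3 called genes with the largest changes are named if their mean reached 5. Replicate numbers were not used as pairs.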

Additional observations from a re-analysis of the deposited data

How the results depend on the processing

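Of 558 refits of tested members, 512 kept direction and call, 27 lost the call, 9 gained it and 10 changed sign. Of the 28 called members, 21 were unchanged in every setting run. The sign changes were Aldoa with equal sums (0.0655) and quantile normalization (0.0253), Tpi1 with equal sums (0.0525), Gapdh with quantile normalization (0.0815), Arnt with equal sums (0.106) and without Sdc1-/- replicate 1 (-0.0603 to 0.0201 over the left-out libraries), and Ankrd37 with equal sums (0.124) and without WT replicate 2, WT replicate 3 or Sdc1-/- replicate 3 (-0.116 to 0.0937); the cause was not tested. Leaving out 1 library gave 7 to 8 higher and 16 to 20 lower members, and 15 to 19 higher and 36 to 41 lower genes in the other lists. Over all genes the same fits gave 3083 to 3353 higher and 3380 to 3608 lower. The Pfkm share difference ranged from -0.638 to 0.223 percentage points, positive without Sdc1-/- replicate 1 only, and the Eno2 share difference from -0.00441 to 0.0221, negative without Sdc1-/- replicate 3 only. Higher genes in the other lists numbered 13 with a minimum mean of 5, where fewer genes are tested, and 34 with equal sums, against 21. Over all genes the same fits gave 2825 and 5286 higher, against 3564.

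Same-numbered libraries had correlations of their deviations of 0.151, -0.00828 and 0.0185, against -0.157 to 0.142 for unlike numbers. The replicate 1 pair lay above the 0.1 set for pairing, as did WT replicate 2 with Sdc1-/- replicate 3 (0.142). A limma fit with the replicate number as a block called 22 lower and 8 higher members, beside 3971 lower and 3653 higher of all 12155 genes. It added Slc2a1 (adjusted p = 0.02) and Vhl (adjusted p = 0.0071, range over the other settings 0.0071 to 0.54). As no read counts were used, depth could not be weighed, and low genes such as Ldhb and Eno2 are the least certain.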
